A study of Mus musculus with 24 samples.

Results

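In wild type mouse quadriceps femoris muscle, a short whole-body heat shock (HS) and the HSP90 inhibitor HSP990 both raised a set of chaperone genes at 4 h, while 17 other genes were called in opposite directions after the 2 treatments and further genes differed between the responses. The comparison used the 8 wild type mice of a series of 24 and asked, gene by gene, how the HS response (HS minus control) differed from the HSP990 response (HSP990 minus vehicle) on the log2 scale. Of 13754 genes with enough counts to test, 13256 on autosomes were kept, and 466 genes on X, 4 on Y and 28 with no assigned chromosome were left out. All 8 mice were wild type CBA x C57BL/6 F1 animals aged 12 weeks, with 2 mice in each group, and muscle was taken 4 h after treatment. HS mice were wrapped in a heating pad under isoflurane and held at a core temperature of 41.5 °C for 15 minutes, and their controls, also anaesthetised, in a pad at 36.9 °C for 21 minutes. The drug group received 12 mg/kg HSP990 by gavage, suspended in methyl cellulose and saline, and the vehicle group received saline by gavage according to its label. Anaesthesia was therefore shared by the control and HS groups, and gavage by the vehicle and HSP990 groups. Each response was taken within its own experiment, and the difference of the 2 responses used no mouse in more than 1 role.

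Heat shock factor 1 (HSF1) is the transcription factor that drives chaperone genes when proteins misfold, and HSP90 is one of the chaperones that hold it inactive. An HSP90 inhibitor therefore releases HSF1 without heat. HSP90 also folds signalling proteins, among them kinases and the glucocorticoid receptor, which needs HSP90 to bind its hormone and which switches on genes of fuel use, muscle protein breakdown and the control of inflammation when corticosterone rises under stress.

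The 8 libraries held 22450177 to 33192334 counts. The level of a gene in a mouse is its CPM, the count relative to the TMM-adjusted library size, which compares mice for 1 gene but not genes with each other, and changes are log2 fold changes ± SE from edgeR's quasi-likelihood test, fitted on all 24 libraries and adjusted by Benjamini-Hochberg over all 13754 genes. A gene was called at an adjusted p under 0.05. All 10 skeletal muscle markers were present, with a summed level of 215000 to 267000 CPM over the 8 mice. The 4 Y-linked genes Ddx3y, Eif2s3y, Kdm5d and Uty had no count in any of the 4 mice of the HS experiment and 3923 to 4870 counts in each of the 4 mice of the HSP990 experiment. In wild type mice the experiment, its handling and the presence of Y-linked transcripts therefore cannot be told apart, although each treated group had the same status as its own untreated group. Vehicle mouse 2 stood apart from vehicle mouse 1 in genes of this comparison. Of 154 genes described below as higher after HS and lower after HSP990, 139 had a higher level in vehicle mouse 2 than in vehicle mouse 1, with a median log2 ratio of 0.47, whereas over 10708 autosomal genes at 1 CPM or more that median was 0.01. The 154 genes were chosen with both vehicle mice in the contrast. Over genes with enough counts, the vehicle mice were no further apart than the HS or HSP990 pairs. Chi-square per degree of freedom between the mice of a group was 30.3 for vehicle. It was 24.45 for control, 30.8 for HS and 33.7 for HSP990. Values without vehicle mouse 2 are given beside several of the results below.

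After HS, 277 genes were called (2.09% of the autosomal genes tested), 215 of them higher (1.62%) and 62 lower (0.468%). After HSP990, 245 genes were called (1.85%), 192 of them higher (1.45%) and 53 lower (0.4%). Both treatments passed the threshold in the same direction for 45 genes upwards (0.339% of genes) and for Sin3a and Plekhh3 downwards (0.0151%), and in opposite directions for 17 genes, 15 up after HS and down after HSP990 (0.113%) and 2 the other way (0.0151%). The difference of the responses was called for 316 genes (2.38%), with 176 higher after HS (1.33%) and 140 higher after HSP990 (1.06%). Without TMM scaling the median difference over all autosomal genes moved to -0.21, and the split of calls turned to 143 higher after HS and 301 higher after HSP990. For 298 of the 316 genes with a called difference (94.3%) the 2 responses had opposite signs, as 55.4% of all autosomal genes had. Choosing genes by a large difference itself favours opposite signs, so the higher share is not a finding about them. Neither response was called on its own for 46 of the 176 and 61 of the 140 genes. Across all autosomal genes the correlation of the 2 responses was -0.02, as a description over genes that share libraries.

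**Figure D1:**
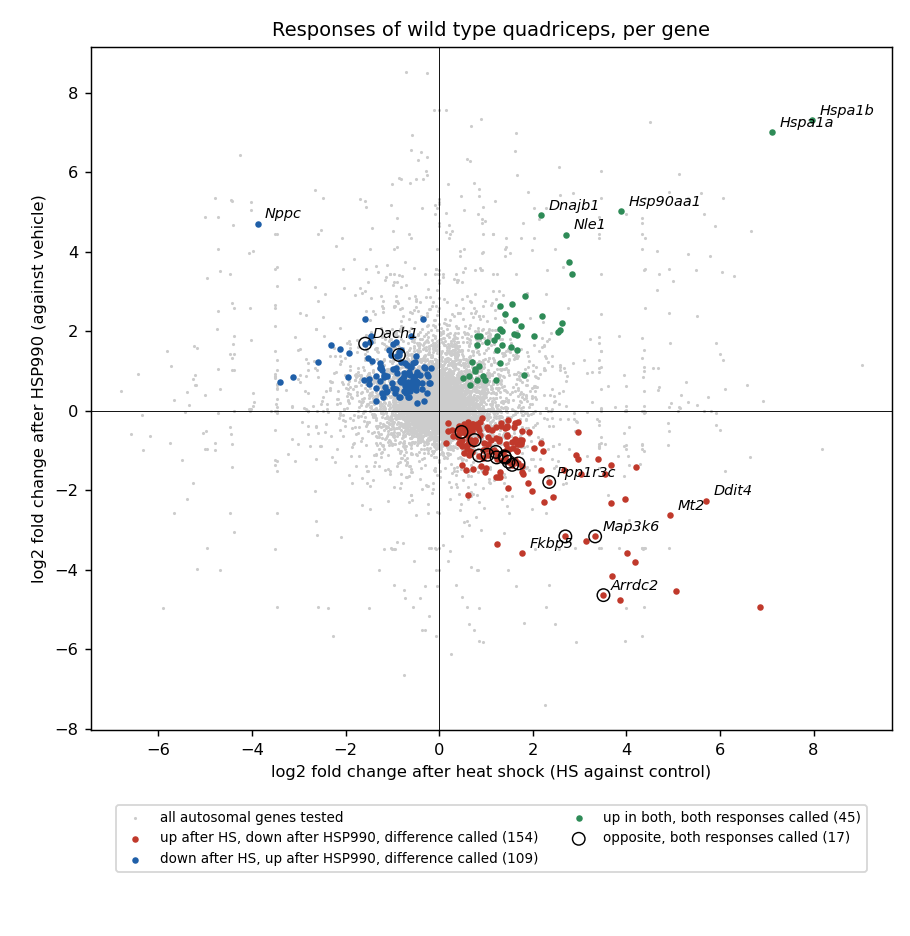
Each point is 1 autosomal gene, with its log2 fold change after HS on the x axis and after HSP990 on the y axis (2 mice against 2 on each axis). Red and blue mark the 154 and 109 opposite genes with a called difference, green the 45 genes that rose after both treatments, and circles the 17 genes called in both responses with opposite signs; the chaperone genes lie in the upper right and Arrdc2, Map3k6 and Ddit4 in the lower right.

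A wider set of opposite genes was made of those with a called difference whose HS mice both lay on one side of both controls and whose HSP990 mice both lay on the other side of both vehicle mice. It held 154 genes higher after HS and lower after HSP990 (1.16% of genes) and 109 genes with the reverse order (0.822%). Without the call on the difference, 7.77% and 6.96% of all autosomal genes had these orders of the mice. Without TMM scaling the 2 patterns held 122 and 248 genes, so which of them was the larger depended on the scaling. At the edge of the threshold, Asah1, Cxcr2 and Gata3 were just inside at adjusted p of 0.0494, 0.0496 and 0.0496, and Snai3, Zfand5 and Leng1 just outside at 0.0506, 0.0507 and 0.0507. Over the 8 mice, 47 of the 154 averaged 100 CPM or more and 76 averaged 10 to 100, while 57 of the 109 averaged 10 to 100 and 49 averaged 1 to 10. Without vehicle mouse 2 the wider set fell from 263 to 80 genes, 64 and 16 in the 2 patterns. Without control mouse 1 it held 116 genes, without control mouse 2 it held 151, without HS mouse 1 140, without HS mouse 2 144 and without HSP990 mouse 2 122.

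The 15 genes that rose after HS and fell after HSP990 were Arrdc2, Map3k6, Depp1, Ppp1r3c, Usp54, Kcna5, Wbp1l, Adgrg1, Noct, Mn1, Slc43a3, Usp2, Acvr1b, Klf9 and Gucd1. Dach1 and Tpst1 fell after HS and rose after HSP990. The differences of all 17 remained called when any 1 of the 8 mice was left out (highest adjusted p 0.045). The 17 were chosen by 2 called responses in these same mice, so the lasting difference is not independent evidence. The number of genes with both responses called was far less stable. It fell to 1 without control mouse 1 or without vehicle mouse 2, to 2 without control mouse 2, 5 without HS mouse 1, 9 without HS mouse 2, 3 without HSP990 mouse 1 and 4 without HSP990 mouse 2, and rose to 32 without vehicle mouse 1. Klf9 and Ppp1r3c were the last to enter, at adjusted p of 0.0479 and 0.0491 in the weaker of their responses, and Fgfr3 and Car14 were just outside at 0.0542 and 0.0548.

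**Figure D2:**
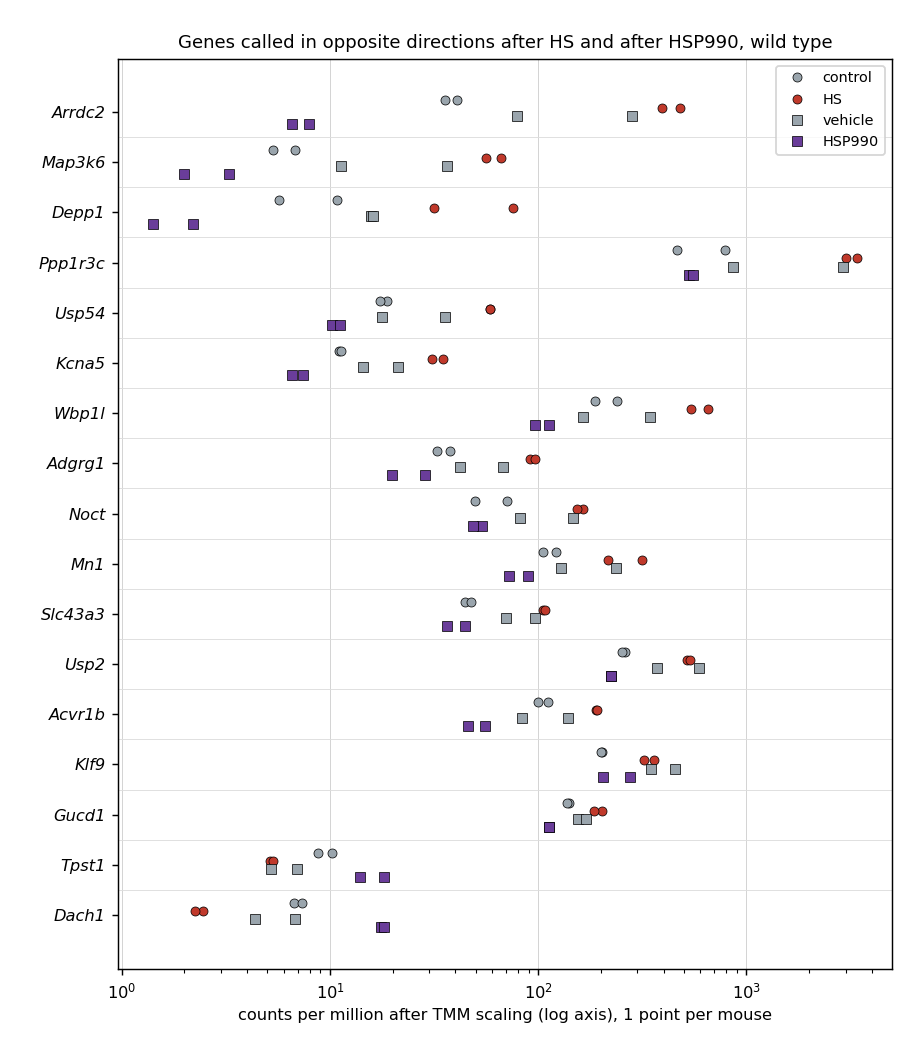
The log x axis gives CPM after TMM scaling, with 1 point per mouse and 2 mice per group, for the 17 genes called in opposite directions. Circles are the HS experiment (grey control, red HS) and squares the HSP990 experiment (grey vehicle, purple HSP990); for Arrdc2 the HSP990 mice sit at 6.59 and 7.92 and the HS mice at 391 and 478, and for Dach1 the order is turned.

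The gene with the largest difference of the 15 was Arrdc2, followed by Map3k6 and Depp1. Arrdc2 (chr8:73359054-73363619, minus strand, mm9), an arrestin-domain protein of the alpha-arrestin family, stood at 40.6 and 35.7 CPM in control mice, 478 and 391 after HS, 78.8 and 284 in vehicle mice and 6.59 and 7.92 after HSP990. It rose by 3.51 ± 0.70 log2 units after HS (adjusted p 0.013) and fell by 4.64 ± 0.76 after HSP990 (adjusted p 0.0027). No treated mouse overlapped its own untreated group, and both HSP990 mice also lay below both controls. Ppp1r3c (chr19:36806227-36811143), a subunit that brings protein phosphatase 1 to glycogen and favours glycogen synthesis, was at 464 and 787 CPM in controls and at 3387 and 3000 after HS. In the HSP990 experiment it was at 859 and 2899 in vehicle mice and at 529 and 556 after the drug. The second vehicle mouse thus reached nearly the HS level, and the HSP990 mice lay within the range of the controls. Depp1 (chr6:116600702-116602865), a target of FOXO transcription factors, was at 5.67 and 10.9 CPM in controls, 76.1 and 31.5 after HS, 15.7 and 16.1 in vehicle mice and 2.20 and 1.42 after HSP990. Its 2 vehicle mice were alike, and its fall after HSP990 was 3.16 ± 0.72 log2 units (adjusted p 0.035).

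Map3k6 (chr4:132796733-132808844), a kinase kinase kinase of the stress-activated MAPK pathways, was at 5.35 and 6.76 CPM in controls, 56.4 and 66.1 after HS, 11.3 and 36.7 in vehicle mice and 2.00 and 3.29 after HSP990. The HS mice were the highest and the HSP990 mice the lowest of the 8. Acvr1b (chr15:101004556-101043032), a type I receptor for activins and myostatin, which restrain muscle growth, was at 111 and 99.7 CPM in controls, 189 and 192 after HS, 83.4 and 139 in vehicle mice and 45.9 and 55.8 after HSP990. It rose by 0.85 ± 0.19 log2 units after HS (adjusted p 0.026) and fell by 1.13 ± 0.19 after HSP990 (adjusted p 0.0040), so its untreated groups overlapped while its treated groups lay on either side. Adgrg1 (chr8:97508503-97538090), an adhesion G protein-coupled receptor, differed by 2.59 ± 0.41 between the responses (adjusted p 0.0036). The potassium channel gene Kcna5 (chr6:126482571-126485573) was at 11.0 and 11.3 CPM in controls, 34.8 and 31.1 after HS, 14.4 and 21.3 in vehicle mice and 7.39 and 6.54 after HSP990. Slc43a3 (chr2:84776736-84798666), a nucleobase transporter, differed by 2.25 ± 0.30 (adjusted p 0.0017).

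Usp2 (chr9:43875104-43903708), a deubiquitinase with a daily rhythm, was at 261 and 254 CPM in controls, 517 and 538 after HS, 371 and 595 in vehicle mice and 225 and 224 after HSP990. Noct (chr3:51028369-51055566), the rhythmic phosphatase nocturnin, was at 49.7 and 70.6 CPM in controls, 165 and 153 after HS, 81.4 and 147 in vehicle mice and 53.9 and 48.9 after HSP990. Both genes were higher in vehicle than in control mice, and for Usp2 this passed the test (control minus vehicle -0.91, adjusted p 0.040). The Krueppel-like transcription factor gene Klf9 (chr19:23215716-23241401) showed the same arrangement, with 203 and 201 CPM in controls, 359 and 324 after HS, 348 and 452 in vehicle mice and 277 and 204 after HSP990. Its vehicle mice overlapped its HS mice (control minus vehicle -0.99, adjusted p 0.029). Klf9 thus moved in opposite directions from 2 different starting levels, and the lower HSP990 mouse ended at the control level. Both HSP990 mice lay below both vehicle mice for all 15 genes, which were chosen by a called fall. They also lay below both controls for 12, the others being Klf9, Noct and Ppp1r3c. The share over all genes is not given for this count. The coregulator gene Mn1 (chr5:111846382-111886053), the deubiquitinase-family gene Usp54 (chr14:21368134-21437576) and Wbp1l (chr19:46673566-46731877) differed by 2.40 ± 0.35, 3.02 ± 0.34 and 2.76 ± 0.42. Gucd1 had the smallest difference of the 15, at 1.01 ± 0.17 (adjusted p 0.0046). Usp2 shares exon sequence on the other strand with Rnf26, and how reads on such overlaps were assigned is not given in the sources used here.

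For the 2 genes of the reverse pattern levels were low. Dach1 (chr14:98186066-98568984), a transcriptional corepressor, was at 6.75 and 7.35 CPM in controls, 2.46 and 2.25 after HS, 6.79 and 4.34 in vehicle mice and 17.6 and 18.3 after HSP990. Tpst1 (chr5:130549196-130611599), a Golgi enzyme that adds sulphate to tyrosines, was at 8.72 and 10.3 CPM in controls, 5.15 and 5.32 after HS, 6.91 and 5.20 in vehicle mice and 18.1 and 13.9 after HSP990. Neither gene had overlapping groups within an experiment. Dach1 fell by 1.58 ± 0.39 log2 units and rose by 1.69 ± 0.37, and Tpst1 fell by 0.86 ± 0.21 and rose by 1.40 ± 0.21.

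Of all lists read, that of the glucocorticoid receptor and its known targets had the highest share of called differences. Of its 29 tested genes, 14 rose after HS and none fell, none rose after HSP990 and 5 fell, and the difference was called for 18, all higher after HS. That is 62.1% of the list, against 2.38% of all autosomal genes. The list's median change was 1.49 after HS and -0.95 after HSP990, with a median difference of 2.44 beside -0.02 for all autosomal genes. The list was written with earlier results of these data known, so its direction is not independent evidence. The 5 genes that fell after HSP990 were Arrdc2, Fkbp5, Glul, Sgk1 and Klf9, and 15 of the 29 belonged to the wider opposite set. Nr3c1, the gene of the receptor itself, was not called in either response (-0.31 after HS and 0.22 after HSP990).

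**Figure D3:**
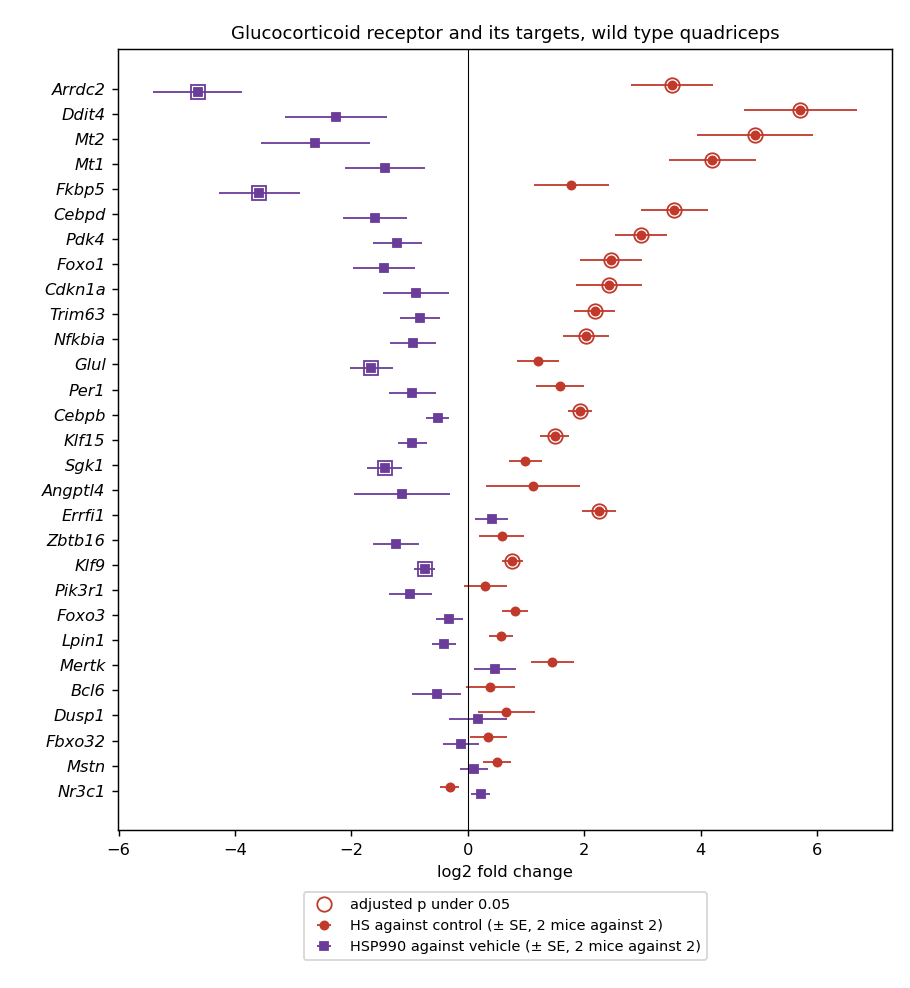
The x axis gives the log2 fold change ± SE of the 29 tested genes of the glucocorticoid receptor list, after HS (red circles) and after HSP990 (purple squares), ordered by the difference; open outlines mark an adjusted p under 0.05. HS values lie to the right of 0 for 28 genes and HSP990 values to the left for 24.

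Fkbp5 (chr17:28536040-28654469), an HSP90 co-chaperone that dampens the receptor and is one of its classical targets, was at 114 and 122 CPM in controls and at 404 and 405 after HS. It was at 98.4 and 372 in vehicle mice and at 22.2 and 17.1 after HSP990. Its HSP990 mice were below every untreated mouse, and its fall by 3.58 ± 0.69 log2 units passed the test (adjusted p 0.012), while its 1.78 ± 0.64 after HS did not (adjusted p 0.21). Ddit4, an inhibitor of mTORC1 induced by many stresses, went from 8.14 and 10.9 CPM to 505 and 492 after HS, and was at 16.4 and 31.0 in vehicle and 3.94 and 5.81 in HSP990 mice. Its difference of 7.97 ± 1.29 was the largest of the list after Arrdc2 (8.15 ± 1.03). The metallothionein genes Mt1 and Mt2, which bind zinc and copper, differed by 5.62 ± 1.01 and 7.56 ± 1.37. Mt2 was at 8.05 and 10.3 CPM in controls, 231 and 330 after HS, 14.8 and 49.6 in vehicle mice and 6.59 and 3.98 after HSP990, a fall that was not called (adjusted p 0.21). Pdk4, the kinase that shuts pyruvate out of oxidation, was at 278 and 378 CPM in controls, 3267 and 1892 after HS, 2155 and 1930 in vehicle mice and 1002 and 762 after HSP990. Vehicle mice thus carried more Pdk4 than controls (control minus vehicle -2.64, adjusted p 0.018), and the HSP990 mice remained above the controls.

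Vehicle mouse 2 was the higher of its pair for 22 of the 29 list genes, with a median log2 ratio of 0.59 between the vehicle mice, beside 0.12 between controls, -0.04 between HS mice and 0.13 between HSP990 mice. Without it, 12 of the 29 differences were called in place of 18, the median difference was 2.13 and the median HSP990 change was -0.62, with 22 of 29 below 0 and 1 called. Without control mouse 1 the called differences were likewise 12. The 14 genes called after HS fell to 2 without control mouse 1, to 4 without control mouse 2 and to 9 without either one of the HS mice. Of the list members named here, Foxo1, Cdkn1a, Per1 and Nfkbia were not called in the difference without vehicle mouse 2 (adjusted p 0.079, 0.23, 0.19 and 0.053). Without either one of the HSP990 mice, 1 of the 29 was called down after the drug. Both HSP990 mice were below both vehicle mice and both controls for 12 of the 29 genes, a count without its share over all genes. In bulk muscle, fewer cells of a type and less RNA per cell cannot be told apart.

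Other lists held fewer opposite genes, and their counts stand beside the 2.38% of all autosomal genes with a called difference. Some of their called members are also on the glucocorticoid receptor list, namely Trim63, Foxo1, Klf15, Per1, Pdk4, Cebpd and Nfkbia. Of 21 tested muscle atrophy genes, 4 rose after HS and the difference was called for 4 (19.0%), all higher after HS. These were Trim63, Foxo1 and Klf15, counted already in the glucocorticoid receptor list, and Cblb. Trim63, the muscle ubiquitin ligase MuRF1, was at 236 and 303 CPM in controls, 1520 and 928 after HS, 508 and 381 in vehicle mice and 234 and 270 after HSP990 (difference 3.00 ± 0.49, adjusted p 0.0045). Its HSP990 value of -0.82 was not called. Cblb, another ubiquitin ligase, fell after HSP990 by 0.95 ± 0.20 (adjusted p 0.021) with 0.59 ± 0.20 after HS (adjusted p 0.17). Fbxo32, the other muscle ligase gene often read beside Trim63, was not called in the difference (0.46, adjusted p 0.69).

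Among 27 tested clock and clock output genes, only Per1 and Usp2 were called in the difference. The call of Usp2 was kept in all 8 fits with 1 mouse left out, and that of Per1 in 1 of 8. Per1, a repressor of the clock that the glucocorticoid receptor also induces, was at 71.5 and 70.2 CPM in controls, 189 and 237 after HS, 66.4 and 178 in vehicle mice and 60.5 and 66.2 after HSP990. Of 19 MAPK feedback genes, Map3k6, Gadd45g and Gadd45a were called, at 6.49 ± 1.01, 4.61 ± 0.82 and 1.49 ± 0.30, all higher after HS, and the call of Gadd45a was kept in 5 of the 8 fits with 1 mouse left out. Of 25 immediate early genes, Zfp36, Maff and Klf2 were called, and Klf2, a transcription factor of vessels and lymphocytes, fell after HSP990 by 1.67 ± 0.38 (adjusted p 0.034). Of 26 genes that regulate oxidative metabolism, Pdk4, Ucp3 and Plin5 were called in the same direction. With 1 mouse left out, Klf2 and Pdk4 stayed called in all 8 fits, Maff, Ucp3 and Plin5 in 5 and Zfp36 in 2, and without vehicle mouse 2 the adjusted p was 0.12 for Zfp36, 0.052 for Maff and 0.069 for Plin5. Ucp3 was at 125 and 136 CPM in controls, 1221 and 1097 after HS, 507 and 615 in vehicle mice and 666 and 433 after HSP990, and was thus raised after HS and without a change after HSP990 that passed the test (-0.03 ± 0.42).

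Cebpb and Cebpd, transcription factors of acute stress, rose after HS by 1.93 ± 0.20 and 3.55 ± 0.57 and had HSP990 values of -0.52 and -1.60, which were not called. Of 27 tested NF-kB feedback and cytokine genes, Cebpd and Nfkbia were called as higher after HS and Tnfaip3 and Cxcl12 as higher after HSP990. With 1 mouse left out, Cebpd stayed called in all 8 fits, Nfkbia in 6, Tnfaip3 in 2 and Cxcl12 in 0. Tnfaip3, an inhibitor of NF-kB, was at 13.9 and 12.7 CPM in controls, 4.81 and 6.28 after HS, 10.9 and 3.45 in vehicle mice and 15.3 and 17.4 after HSP990, and Nfkbia, another inhibitor, was at 12.5 and 18.3, 61.8 and 64.4, 16.4 and 19.5, and 8.88 and 9.83 in the same order. These 2 inhibitors thus had opposite differences, -2.45 ± 0.55 and 2.97 ± 0.57. Lcn2, which neutrophils and stressed tissue make, was at 0.405 and 0.821 CPM in controls, 9.44 and 13.1 after HS, 0.331 and 2.75 in vehicle mice and 0.250 and 0 after HSP990, and its difference was not called without vehicle mouse 2 (adjusted p 0.27). The 6 neutrophil markers in the table summed to 1.68 to 2.34 CPM in controls, 6.03 to 7.94 after HS, 1.95 to 2.37 in vehicle mice and 1.65 to 1.97 after HSP990, and their part in the Lcn2 result was not tested.

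Further genes with large differences were Odf3l2 (8.63 ± 1.5), the hypoxia-inducible factor gene Hif3a (7.85 ± 1.51), the vesicle protein gene Doc2b (7.59 ± 1.35), Tent5b (6.43 ± 1.15) and the steroid sulphate transporter gene Slc10a6 (5.99 ± 1.16). Odf3l2 was at 14.2 and 22.2 CPM in controls, 239 and 294 after HS, 16.9 and 126 in vehicle mice and 2.15 and 3.08 after HSP990. Vehicle mouse 2 was the higher of its pair for all 5. The difference of Odf3l2 stayed called without it, while those of Doc2b, Tent5b, Hif3a and Slc10a6 did not (adjusted p 0.063, 0.055, 0.065 and 0.062). Below a mean of 1 CPM, Cxcr2 and Igdcc3 had still larger estimates, which rest on few counts.

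The 109 genes lower after HS and higher after HSP990 had a median of -0.80 after HS and 0.86 after HSP990. None averaged 100 CPM or more. The largest difference belonged to Nppc (chr1:88562866-88567147), which encodes C-type natriuretic peptide, a vasodilator and growth plate signal. Nppc was at 0.720 and 0.560 CPM in controls, 0 and 0.0832 after HS, 0.248 and 0.310 in vehicle mice and 6.24 and 8.51 after HSP990. It rose after HSP990 by 4.70 ± 0.71 (adjusted p 0.0013), and counts after HS were too few for a fold change. Mycn, a growth-promoting transcription factor, fell after HS from 1.84 and 3.70 CPM to 0.336 and 0.291, and was at 0.497 and 0.504 in vehicle mice and 0.699 and 1.11 after HSP990. Samd5, Sertad4 and Fam167a also fell after HS, while their HSP990 values of 1.24, 0.84 and 0.72 were not called. Spon2, Tyro3, Sqle and Arsi were called in the difference only, at -3.88, -3.38, -3.21 and -2.86. Without vehicle mouse 2, the differences of Nppc and Dach1 stayed called and those of Mycn, Spon2, Tyro3, Fam167a, Samd5, Sertad4, Sqle and Arsi did not (adjusted p 0.07 to 0.16).

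Of 42 tested collagen and matrix genes, 37 had a lower estimate after HS than after HSP990, with a median difference of -0.86, and 3 differences were called, those of Tnc, Lum and P4ha1. These calls were kept in 1, 0 and 3 of the 8 fits with 1 mouse left out, and none of them without vehicle mouse 2 (adjusted p 0.069, 0.23 and 0.11). In the other genotypes the list lay on the other side, with 32 of 42 estimates above 0 in R6/2 mice (median 0.21) and 30 of 42 in Hsf1-/- mice (median 0.186). Tnc, the matrix glycoprotein tenascin-C, was at 13.6 and 15.9 CPM in controls, 8.69 and 11.3 after HS, 6.58 and 8.34 in vehicle mice and 18.2 and 16.4 after HSP990, with a called rise after HSP990 of 1.21 ± 0.28. The 7 fibroblast markers, 1 of which is Lum itself, summed to 917 to 1020 CPM in controls, 805 to 893 after HS, 647 to 678 in vehicle mice and 913 to 935 after HSP990. Endothelial markers summed to 466 to 498, 499 to 520, 412 to 491 and 578 to 666 CPM, and macrophage markers to 91.8 to 112, 98 to 100, 69 to 71.2 and 103 to 146 in the same order. The part of these cell types in the 109 genes, which include the endothelial marker Tek and the macrophage marker Lyz2, was not tested.

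The opposite genes stood beside a response that both treatments shared. Of 67 tested chaperone genes on 5 lists, 21 rose after HS and 27 after HSP990, and 21 rose after both. The difference was called for 5 of the 67, or 7.46%, beside 2.38% of all autosomal genes. Hspa1a and Hspa1b, the inducible HSP70 genes, had the largest changes summed over both treatments. Hspa1a was at 3.37 and 11.1 CPM in controls, 961 and 1063 after HS, 28.6 and 16.2 in vehicle mice and 2950 and 2777 after HSP990. The fold changes were nearly alike (7.11 ± 0.63 and 7.0 ± 0.62) although the HSP990 mice reached higher levels, since the vehicle mice started higher. The difference for Hspa1a was 0.11 ± 0.70, and its sign turned to -0.06 without TMM scaling. Hspa1a and Hspa1b are near-identical copies, so the division of reads between them is uncertain. Near-identical copies also exist for Hsp90aa1, Hspb1, Hspd1, Hspe1 and Ywhaz, and exons overlap on the other strand for Hspd1 with Hspe1, Cebpb with Tmem189, Gabpa with Atp5j and Hspa1a with Gm20481.

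**Figure D4:**
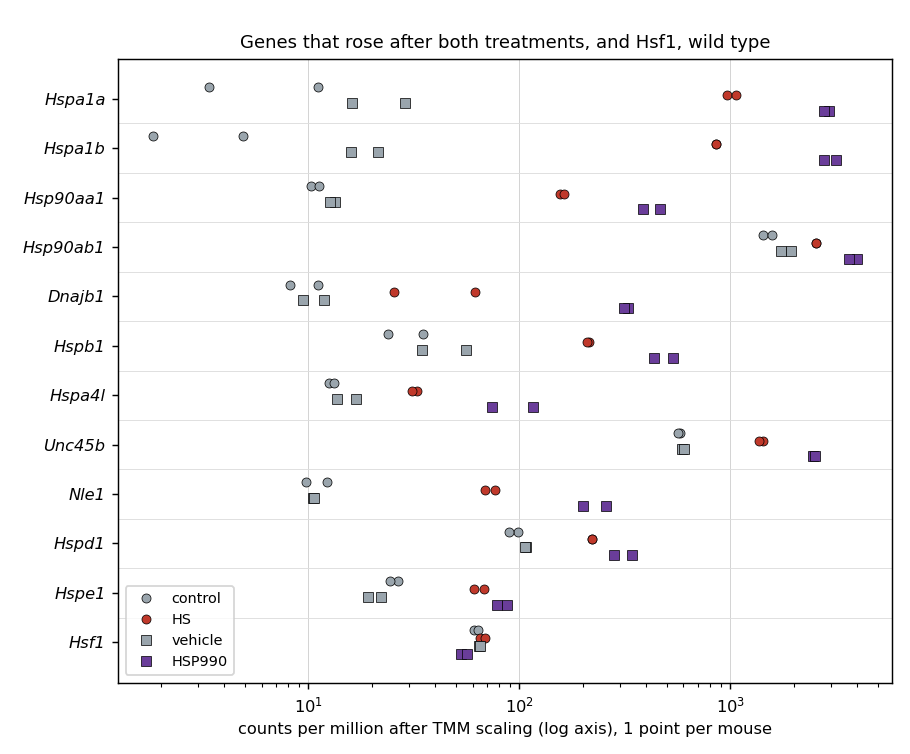
The log x axis gives CPM after TMM scaling, 1 point per mouse, for 11 genes that rose after both treatments and for Hsf1. Circles are the HS experiment and squares the HSP990 experiment; for Dnajb1 the HSP990 mice (327 and 315) lie above the HS mice (25.6 and 61.9), and Hsf1 stays between 52.9 and 68.6 in all 8 mice.

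Of the 45 genes that rose after both treatments, 31 had the larger estimate after HSP990, and the difference was called for 6, each larger after HSP990. These were Dnajb1, Nle1, Hspa4l, Dedd2, P4ha1 and Unc45b. With 1 mouse left out, Dnajb1 and Nle1 stayed called in all 8 fits, Hspa4l in 4, Dedd2 and P4ha1 in 3 and Unc45b in 0. Dnajb1, the HSP40 partner of HSP70, was at 11.2 and 8.17 CPM in controls, 25.6 and 61.9 after HS, 9.40 and 11.8 in vehicle mice and 327 and 315 after HSP990 (difference -2.74 ± 0.43, adjusted p 0.0037). Unc45b, which folds muscle myosin, was at 575 and 562 CPM in controls, 1426 and 1371 after HS, 589 and 600 in vehicle mice and 2454 and 2535 after HSP990 (difference -0.77 ± 0.18). Nle1, a ribosome assembly factor, rose by 2.72 ± 0.22 and 4.43 ± 0.24, and it shares exon sequence on the other strand with Fndc8. Hsp90aa1 and Hsp90ab1, the genes of the drug's targets, rose by 3.89 ± 0.26 and 0.76 ± 0.14 after HS and by 5.02 ± 0.28 and 1.05 ± 0.14 after HSP990, and neither difference was called. The mitochondrial chaperonin pair Hspd1 and Hspe1 rose after both treatments as well, with differences of -0.30 ± 0.17 and -0.66 ± 0.27 that were not called. Among chaperone genes only Fkbp5 and Dnajb12 were called as higher after HS, and the difference of Dnajb12 was small (0.51 ± 0.13, adjusted p 0.049) and was called in 0 of the 8 fits with 1 mouse left out. Hsf1, Gabpa and the housekeeping genes Actb, Atp5b, Canx, Sdha and Ywhaz were not called in the difference, with values between -0.20 and 0.34.

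RefSeq windows (GRCm38.p6, from 250 bases before to 50 after a start site) were found for 128 of the 154 genes, 84 of the 109 and 36 of the 45. The glucocorticoid response element, searched as GNACA and TGTNC with 3 free bases between them, which reads alike on both strands, occurred in a window of 10 of the 128 genes (7.81%), of none of the 84 and of none of the 36, against 0.441% of 10435 autosomal genes tested and 0.537% of 27025 genes of the whole table. Counted by window, the 128 genes had it in 6.18% of 178 windows, beside 0.475% of all 32851. The 10 genes were Car14, Fam107a, Kcna5, Map3k6, Mt1, Serpina3n, Sgk1, Slc10a6, Tinagl1 and Trim63. The heat shock element as a pair of units, GAANNTTC or TTCNNGAA on either strand, occurred in 38.9% of the 36 shared genes, 12.5% of the 128 and 10.7% of the 84, against 14.0% of the tested genes and 17.0% of the whole table. As 3 units, GAA, TTC and GAA or their complement, each 2 bases apart, a form that always holds both 2-unit forms, it occurred in 8.33% of the shared genes, Hspd1, Hspe1 and Hsph1, against 0.604% of the tested genes. It also occurred in 0.781% of the 128 genes (Art3) and 1.19% of the 84 (Plscr4). The windows of Hspd1 and Hspe1 overlap on opposite strands, and their 3-unit matches are the same bases read from either strand. The E-box CACGTG was found for 12.5%, 8.33% and 13.9% of the 3 groups against 11.3% of tested genes, and the D-box TTATGTAA for 1 gene of the 84 only, against 0.776%. A match is a description of these letters, not evidence of binding.

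The windows of 5 opposite genes and of 1 shared gene show the motifs, as the 250 bases before the start, 5′ to 3′ along the gene, from RefSeq (GRCm38.p6). Capitals mark the glucocorticoid response element in the first 5 and, in Hspe1, 2 overlapping 3-unit heat shock elements. Kcna5 and Map3k6 were called in both responses, Mt1, Sgk1 and Trim63 are list members with a called difference, and Hspe1 rose after both treatments.
Kcna5 (chr6:126535556-126535805, minus strand): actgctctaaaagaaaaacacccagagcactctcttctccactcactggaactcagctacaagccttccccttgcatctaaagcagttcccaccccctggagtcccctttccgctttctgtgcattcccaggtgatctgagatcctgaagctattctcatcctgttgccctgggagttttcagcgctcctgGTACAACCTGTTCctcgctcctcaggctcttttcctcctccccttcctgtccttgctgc
Map3k6 (chr4:133240568-133240817, plus strand): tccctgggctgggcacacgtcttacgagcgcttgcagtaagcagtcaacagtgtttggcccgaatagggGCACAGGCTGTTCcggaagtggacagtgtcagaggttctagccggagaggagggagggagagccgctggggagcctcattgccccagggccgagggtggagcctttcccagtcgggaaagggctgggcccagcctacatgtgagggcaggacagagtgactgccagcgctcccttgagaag
Mt1 (chr8:94178839-94179088, plus strand): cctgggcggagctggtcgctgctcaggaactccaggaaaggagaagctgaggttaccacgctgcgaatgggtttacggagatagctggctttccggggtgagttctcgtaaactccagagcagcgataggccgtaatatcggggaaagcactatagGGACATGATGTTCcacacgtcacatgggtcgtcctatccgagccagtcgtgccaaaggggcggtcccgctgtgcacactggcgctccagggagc
Trim63 (chr4:134314870-134315119, plus strand): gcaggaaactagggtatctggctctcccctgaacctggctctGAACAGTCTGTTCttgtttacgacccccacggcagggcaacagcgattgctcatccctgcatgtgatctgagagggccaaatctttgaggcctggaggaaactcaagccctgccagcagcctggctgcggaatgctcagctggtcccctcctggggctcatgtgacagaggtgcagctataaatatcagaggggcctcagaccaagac
Sgk1 (chr10:21993640-21993889, plus strand): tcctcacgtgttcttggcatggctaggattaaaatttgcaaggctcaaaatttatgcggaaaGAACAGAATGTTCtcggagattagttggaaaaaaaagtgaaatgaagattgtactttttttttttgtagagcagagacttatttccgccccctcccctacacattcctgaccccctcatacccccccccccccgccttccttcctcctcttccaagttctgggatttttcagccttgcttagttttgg
Hspe1 (chr1:55087898-55088147, plus strand): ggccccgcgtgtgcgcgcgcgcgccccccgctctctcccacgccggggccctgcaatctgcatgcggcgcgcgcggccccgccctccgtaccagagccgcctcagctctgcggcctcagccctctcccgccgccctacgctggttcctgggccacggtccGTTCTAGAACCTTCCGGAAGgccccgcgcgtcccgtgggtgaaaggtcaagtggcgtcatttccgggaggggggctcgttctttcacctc

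The same difference was read in the other genotypes, whose mice were not part of the wild type contrast but shared its filter on low counts and its estimate of the spread. The series holds 8 mice of the Huntington's disease model R6/2, which carries a mutant HTT exon 1 transgene, at 12 weeks, and 8 Hsf1-/- mice, which lack the factor in all cells, at 10 weeks in the HS experiment and 8 weeks in the HSP990 experiment. Of the 154 genes, 150 had a difference above 0 in R6/2 mice and 149 in Hsf1-/- mice, compared with 48.1% and 49.2% of all autosomal genes. The difference was called in the same direction for 83 in R6/2 mice, where 179 of 219 called genes (1.35% and 1.65% of genes) had that sign, and for 9 in Hsf1-/- mice, where 13 of 20 (0.0981% and 0.151%) had it, and none was called in the other direction in either. Of the 109 genes, 103 and 101 lay below 0, with 10 called in R6/2 mice, where 40 (0.302%) were, and 1 in Hsf1-/- mice, where 7 (0.0528%) were.

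**Figure D5:**
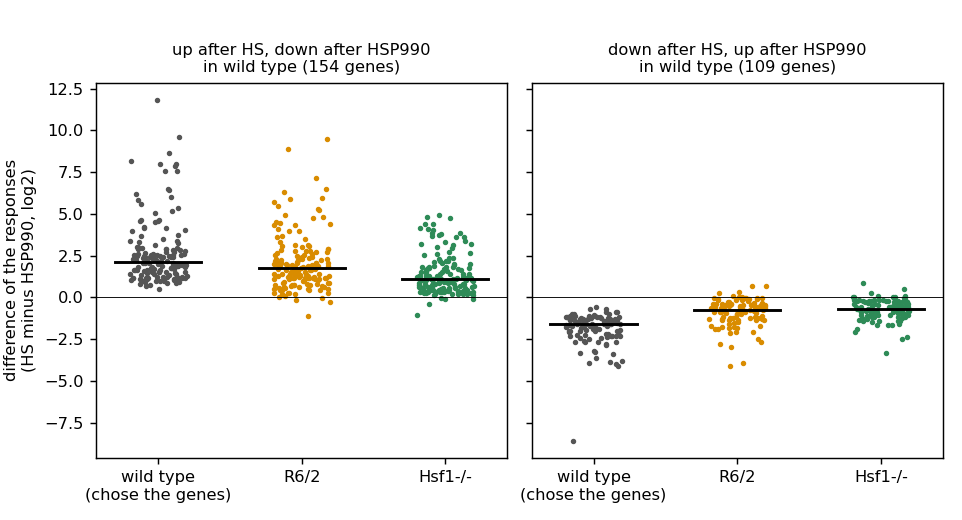
The y axis gives the difference of the responses (HS minus HSP990, log2) for the 154 genes (left) and the 109 genes (right) in wild type, R6/2 and Hsf1-/- mice; each point is a gene and each bar the median. Wild type values chose the genes and are shown for reference, and nearly all points of the other genotypes lie on the same side of 0.

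Median differences over the 154 genes were 2.14 in wild type, 1.75 in R6/2 and 1.10 in Hsf1-/- mice. Wild type values chose the genes, so a smaller value elsewhere is not a finding. The direct test of wild type against the other genotype called 0 autosomal genes in either case (edgeR, with 633 (4.78%) and 824 (6.22%) genes at an unadjusted p under 0.05, and no other tool run). The split into 2 signs was kept for most of the 154 genes. HS values were above 0 and HSP990 values below 0 for 137 of the 154 genes in R6/2 and 132 in Hsf1-/- mice, orders that 25.1% and 26.8% of all autosomal genes had. Of the 109 genes, 85 in R6/2 and 80 in Hsf1-/- mice kept the reverse signs. With no overlap of treated and untreated mice in either experiment, the wild type order held for 95 and 62 of the 154 and for 33 and 42 of the 109. Shares over all genes are not given for these no-overlap counts or for the reverse signs of the 109 genes. Neither is therefore read as a result. All 15 genes with both responses called kept a positive difference in both genotypes, with 13 called in R6/2 mice and 4 in Hsf1-/- mice. Arrdc2 differed by 4.78 in R6/2 and 4.73 in Hsf1-/- mice, and Map3k6 by 6.29 and 4.12. Fkbp5 differed by 3.99 in R6/2 (adjusted p 0.031) and by 1.63 in Hsf1-/- mice (adjusted p 0.53). On the glucocorticoid receptor list, the median difference was 2.08 in R6/2 with 16 of 29 called, and 1.10 in Hsf1-/- mice with 26 of 29 above 0 and none called. Y-linked counts in R6/2 mice were 0 to 4 in the HS and 6702 to 9392 in the HSP990 experiment, as in wild type. In Hsf1-/- mice they were 4781 to 5365 and 3916 to 8729. What the Y-linked status of the mice contributed to the differences was not tested.

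Part of the difference could already be read in the untreated groups. Control and vehicle mice differed in 27 autosomal genes (0.204%), 4 higher (0.0302%) and 23 lower (0.174%) in controls, and 12 of the 27 were among the 263 wider opposite genes. These were Bach1, Fscn2, Klf9, Pdk4, Rnf144b, Slc30a2, Smox, Tfcp2l1, Ush1g and Usp2, lower in controls and among the 154, and Chsy1 and Scd2, higher in controls and among the 109. Both comparisons use the same untreated mice. For these 12 genes the difference in starting level passed the test, but a gene without this call need not have started level. Plin5 and Mycn, for instance, had control minus vehicle values of -1.27 (adjusted p 0.076) and 2.46 (adjusted p 0.065). By the choice of the sets, both HSP990 mice lay past both vehicle mice. They also lay below both controls for 88 of the 154 genes and above both controls for 74 of the 109. The shares over all genes are not given for these 2 counts. What the anaesthesia or the gavage contributed was not tested.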

How the data were processed

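RNA of quadriceps femoris muscle was sequenced by the authors (strand-specific, paired reads) and aligned with Bowtie to mm9, as the study's methods and the submitters' processing notes say. The deposited values are raw counts per gene, 1 column per mouse, without normalization, and the counting program and its annotation are not given in the sources used here. Of 18669 genes, 18594 were matched to a symbol and 18289 to mm9 coordinates (GENCODE).

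A gene was tested if 10 or more of the 24 libraries held 2 or more of its counts, with edgeR 4.0.16 (R 4.3.3), with TMM scaling, 12 group means with 12 residual degrees of freedom, the quasi-likelihood test and Benjamini-Hochberg adjustment. The study's own tool, DESeq2 (1.42.0 here), was an alternative. On simulated counts of 13754 genes with 200 changed in the difference, 93 of 96 calls were true, with 80 of 100 genes recovered at a change of 2 log2 units and 13 of 100 at 1. These counts were drawn with the fitted spread and 1 mean per gene, and changes were planted only at 1 CPM or more. No simulated mouse stood apart from its group, so they give no error rate for the reported calls. Replicates are separate mice, and counts of the pairs differed by more than sampling noise. With 2 mice against 2, an exact permutation test of a single value cannot go below 0.333, so none was used. Counts, and the CPM made from them, have errors over mice, and depth limits mainly genes under 1 CPM.

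Named were all genes called with opposite signs in both responses, per opposite pattern the 10 with the largest difference at 1 CPM or more, of genes up in both the 5 largest and 5 smallest sums and all with a called difference, up to 5 called members of each list, and a fixed set of chaperone and housekeeping genes. Other genes are named where a count is small, after their values were seen. The members, gene lists and tests were chosen with earlier results of these data known. Replicate numbers were shared across groups, and deviations of same-numbered mice correlated at -0.25 between control and HS and at 0.237 between vehicle and HSP990, so the numbers were not taken as pairs. Lists on HSP70, HSP90, DNAJ, small heat shock proteins and chaperonins were read together. Those of ER chaperones, ATF4, BMP, metallothionein and NRF2, hypoxia, insulin, myogenic and p53 genes and heat shock factors are given in the closing section.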

Additional observations from a re-analysis of the deposited data

How the results depend on the processing

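With 2 mice per group, single mice decide many calls. Leaving out each of the 8 wild type mice in turn gave 88 to 283 called differences, 39 to 285 genes called after HS, 58 to 180 after HSP990, 1 to 32 opposite genes with both responses called, 80 to 252 opposite genes with a called difference and no overlap, 21 to 41 genes called in the same direction in both and 0 to 28 between control and vehicle. The differences of the 17 opposite genes, chosen from these same mice, kept their sign in every alternative run. They stayed called wherever each group kept its 2 mice. In the same order, the counts were 316, 277, 245, 17, 263, 47 and 27 as reported. With only the 8 wild type libraries the first 5 were 578, 447, 443, 55 and 462, with 214 between control and vehicle. Without R6/2 libraries, 490 differences, 429 genes after HS, 44 and 395 opposite genes and 264 between control and vehicle were called. DESeq2 called 629, 532, 525, 64, 489, 73 and 275 on 24 libraries and 913, 723, 812, 150, 630, 101 and 745 on 8. With no filter on low counts, 50 genes were called between control and vehicle. The cause of these shifts was not tested.

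With the replicate number as a block, 297 differences, 14 and 248 opposite genes were called; with the control numbers exchanged, an alternative chosen after seeing the data, 292, 14 and 245.

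The sign of 6 differences that were not called turned in places. Without TMM scaling, Hspa1a was at -0.06, Xpnpep3 at -0.16 and Ywhaz at -0.02. With 1 mouse left out, Hspa1a ranged from -0.49 to 1.23, Xpnpep3 from -0.21 to 0.22, Atf3 from -2.36 to 0.55, Sdha from -0.01 to 0.41 and Gabpa from -0.26 to 0.15.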

Other observations

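Over all autosomal genes, 2.38% of differences were called. The lists read only here held 0 to 2 called differences each. They were called for 0 of 20 ER chaperone genes, 2 of 23 ATF4 targets (Cebpb and Ddit4, both higher after HS), 1 of 22 BMP and ID genes (Bmp2, higher after HSP990), 2 of 15 metallothionein and NRF2 genes (Mt1 and Mt2), 2 of 15 hypoxia genes (Pfkfb4 higher after HS, P4ha1 higher after HSP990), 1 of 21 insulin and IGF genes (Foxo1, higher after HS), 0 of 20 myogenic and denervation genes, 2 of 15 p53 targets (Cdkn1a and Trp53inp1, higher after HS) and 0 of 5 heat shock factors. The shares were 13.3% for the metallothionein, hypoxia and p53 lists, 8.7% for ATF4 targets, 4.55% for BMP genes and 4.76% for insulin genes. Cebpb, Ddit4, Mt1, Mt2, Foxo1 and Cdkn1a are also on the glucocorticoid receptor list, and P4ha1 on that of collagen and matrix. Cdkn1a, an inhibitor of the cell cycle, was at 30.3 and 41.5 CPM in controls, 163 and 225 after HS, 14.9 and 39.2 in vehicle mice and 15.3 and 14.0 after HSP990. Bmp2, a growth factor, was at 2.61 and 4.26 CPM in controls, 2.83 and 2.62 after HS, 1.95 and 1.20 in vehicle mice and 4.99 and 4.26 after HSP990. With 1 mouse left out, the difference stayed called in 2 of 8 fits for Bmp2 and Pfkfb4, 1 for Cdkn1a and 0 for Trp53inp1, and without vehicle mouse 2 none of these 4 was called (adjusted p 0.22, 0.19, 0.23 and 0.16). Adipocyte markers summed to 4780 to 6250 CPM in controls, 5680 to 6510 after HS, 2480 to 4690 in vehicle mice and 3330 to 3840 after HSP990, and slow fibre markers to 258 to 312, 221 to 250, 393 to 544 and 123 to 640 in the same order. A sum follows its most abundant members. Of the 9 adipocyte markers, 8 had an estimate below 0 after HS (median -0.62). Their difference was also below 0 for 8 (median -0.95), and the 1 that was called was higher after HS.

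Atf3, an early stress transcription factor, differed widely between the mice of a group, with 17.3 and 59.3 CPM in controls, 105 and 71.3 after HS, 82.5 and 14.4 in vehicle mice and 148 and 190 after HSP990, and its difference of -0.61 ± 1.68 was not called.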
